A study of Homo sapiens with 12 samples.

Results

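The genes described here were 10 members of the BCL2 family, taken by symbol from the table of raw read counts: the BH3-only genes PMAIP1 (NOXA), BBC3 (PUMA), BCL2L11 (BIM) and BID, the effectors BAX and BAK1, and the anti-apoptotic genes MCL1, BCL2, BCL2L1 (BCL-XL) and BCL2A1. They were 10 of 42157 genes counted, and 9 of them were among the 13696 genes with enough reads to be tested. BCL2A1 was the member left out by the filter on low counts. The counts came from HL-60, an established human acute myeloid leukemia (AML) cell line, sampled after 3 h of treatment in 4 groups of 3 libraries. These were ML-792+DNR (0.5 µM ML-792 with 1 µM daunorubicin), DNR (1 µM daunorubicin alone), ML-792 (0.5 µM alone) and DMSO (the vehicle). Daunorubicin (DNR) is an anthracycline and topoisomerase II poison used against AML, and ML-792 inhibits the E1 enzyme of SUMOylation, the attachment of the SUMO modifier to proteins, many of them in chromatin. Per the study's methods, the 3 replicates of a group came from independent experiments, all in the same cell line. The comparisons ask how DNR changes gene expression in AML cells and what blocking SUMOylation changes in that response.

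BCL2 family proteins decide whether the outer membrane of the mitochondrion is opened during apoptosis. BAX and BAK1 form the pores, MCL1, BCL2, BCL2L1 and BCL2A1 hold them in check, and BH3-only proteins either occupy the groove of these guardians or activate the effectors directly. NOXA, the product of PMAIP1, binds MCL1 above all, and MCL1 is a short-lived protein on which many myeloid leukemia cells depend.

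The segment through which these proteins meet is the BH3 region, whose core is a leucine followed, after 3 residues, by a glycine or alanine and an aspartate. The coding DNA of that core is shown for a pair of BH3-only genes and the pair of guardians that moved most, read from the GRCh37 genome along the canonical transcripts. Capitals mark the leucine codon and the codons of the glycine and aspartate.
PMAIP1 (chr18:57569893-57569934, + strand): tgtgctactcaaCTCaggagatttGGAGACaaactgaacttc
BCL2L11 (chr2:111907668-111907709, + strand): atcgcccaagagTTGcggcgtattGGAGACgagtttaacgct
MCL1 (chr1:150551341-150551382, - strand): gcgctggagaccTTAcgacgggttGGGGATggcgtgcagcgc
BCL2 (chr18:60985582-60985623, - strand): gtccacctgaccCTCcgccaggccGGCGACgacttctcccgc
The pattern occurred exactly 1 time in the coding sequence of 9 of the 10 members and 0 times in BCL2A1. All 4 segments shown lie in coding exons. PMAIP1 encodes a protein of only 54 residues, against 198 for BCL2L11, 350 for MCL1 and 239 for BCL2.

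Libraries held 28.6 to 46.5 M reads (M, megareads) in genes. Myeloid marker genes (MPO, ELANE, PRTN3, AZU1, CTSG, CD33, SPI1 and CEBPA) all had reads in each group, with summed levels of 10630 to 13820 CPM (reads of the gene per megaread in genes, scaled between libraries). MPO made up most of that sum, with group means of 10320 to 11270 CPM, while ELANE had group means of only 0.675 to 1.81 CPM. Markers of lymphocytes summed to at most 13.5 CPM, those of stroma and epithelium to at most 5.99 CPM and those of erythroid cells to at most 0.0864 CPM, with CD3E, MS4A1, COL1A2, EPCAM, HBB, HBA1 and HBA2 at 0 in every library. The share of mitochondrially encoded transcripts was 4.30% to 6.78% in the replicate 1 libraries and 2.67% to 3.72% in the others. Its part in the results was not tested, and values from replicates 2 and 3 alone are given where they end a call. In bulk RNA, fewer cells of a kind and less RNA per cell cannot be told apart.

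**Figure D1:**
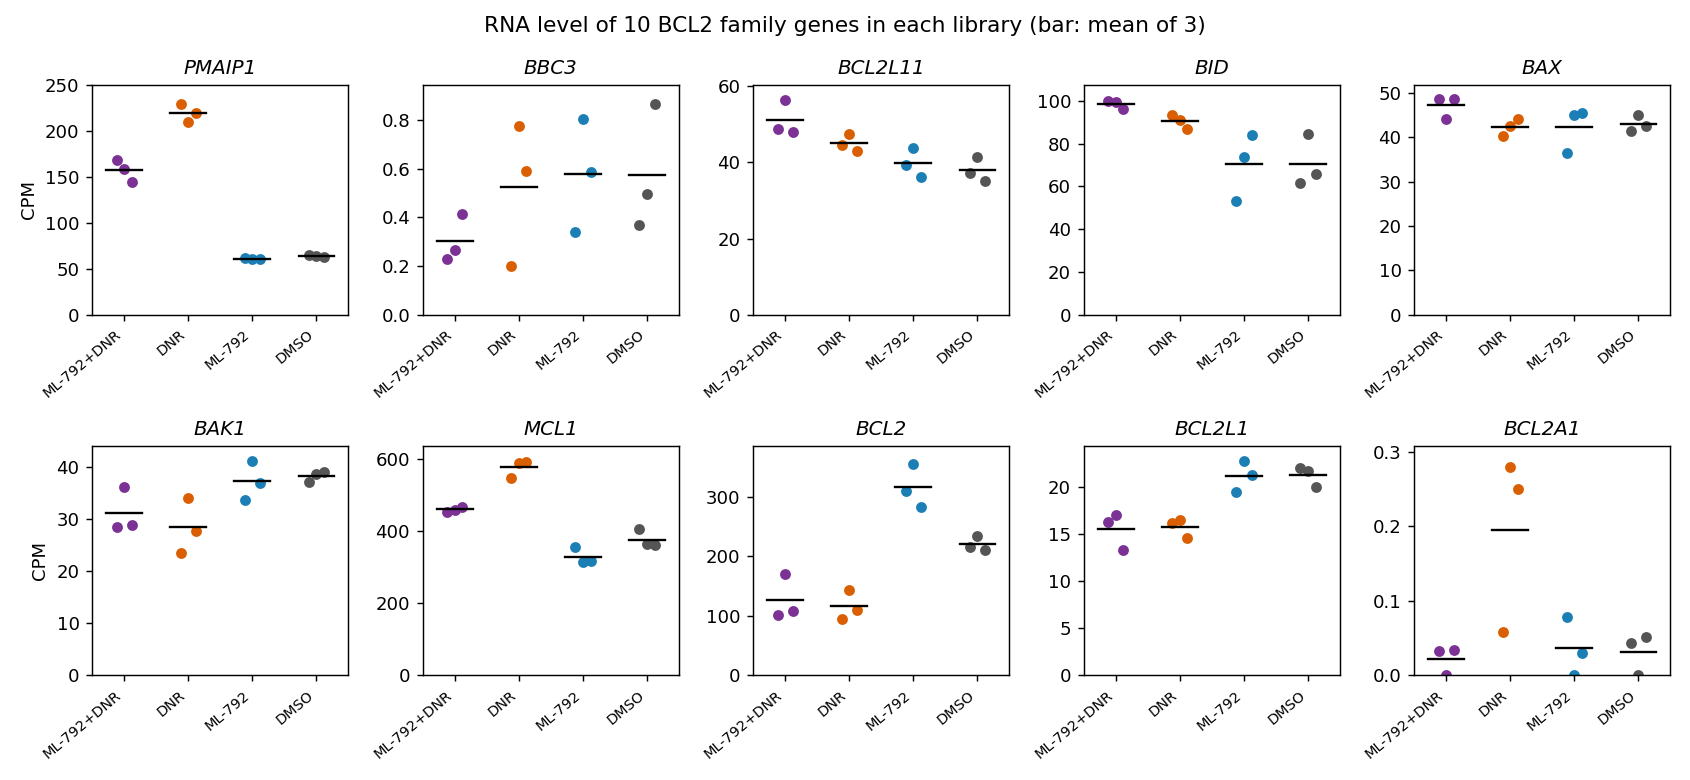
CPM of the 10 BCL2 family genes (vertical axes, each from 0) in the 12 libraries, by group; points are libraries and bars are means of 3. PMAIP1 and MCL1 were highest in DNR, BCL2 was highest in ML-792 at 283.5 to 354 CPM, and BBC3 and BCL2A1 stayed below 1 CPM in all 12 libraries.

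Daunorubicin changed the RNA of several members, with PMAIP1 as the largest rise and BCL2 as the largest fall among the 9 tested. Against DMSO, DNR raised PMAIP1 3.43-fold and MCL1 1.53-fold, while BCL2 fell to 0.527 of its DMSO level, BCL2L1 to 0.741 and BAK1 to 0.741 (edgeR quasi-likelihood test). Thus 5 of 9 tested members passed an adjusted p of 0.05 at any fold, 2 higher and 3 lower, where 30.0% of all 13696 tested genes did so. At 2-fold or more 1 of 9 passed, PMAIP1, against 6.98% of all tested genes. Members and the lists below were chosen with earlier results of these data known, so such shares are given as background and not as a test. The median log2 fold change of the tested members was −0.02, and that of all tested genes 0.01. Leaving out DNR replicate 3 left 3 of the 5 (BCL2L1 at adjusted p = 0.0538 and BAK1 at 0.0828), replicates 2 and 3 alone also left 3, and without DNR replicate 2 BCL2 passed the 2-fold limit as well. Over all tested genes, calls at any fold fell to 3139 without DNR replicate 3 and to 1911 with replicates 2 and 3 alone, from 4108. Calls at 2-fold rose to 1132 from 956 without DNR replicate 2. With the replicate number as a block 7 of 9 members passed at any fold, where 42.1% of all tested genes did.

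In the presence of ML-792, the same question gave a similar list. ML-792+DNR against ML-792 raised PMAIP1 2.58-fold, MCL1 1.40-fold, BID 1.40-fold and BCL2L11 1.28-fold, and BCL2 fell to 0.400 and BCL2L1 to 0.735 of the ML-792 level. These were 6 of 9 tested members at any fold, against 33.8% of all tested genes, and 2 of 9 at 2-fold or more (PMAIP1 higher, BCL2 lower), against 6.34%. With the replicate number as a block, BAK1 (log2 fold change −0.26, adjusted p = 0.0278) and BBC3 (−0.96, adjusted p = 0.0477) also passed in edgeR, which made 8 of 9, while the share of all tested genes was 46.7% under the block. For ML-792+DNR against DMSO 6 of 9 members passed at any fold, where 35.4% of all genes did, and 1 of 9 at 2-fold (PMAIP1), where 6.48% did. That comparison called the same 6 genes in the same directions as ML-792+DNR against ML-792, with which it shares the ML-792+DNR libraries. Under the block it too gained BAK1 (−0.31, adjusted p = 0.0114) and BBC3 (−0.98, adjusted p = 0.0411), with 49% of all genes passing. Replicates 2 and 3 alone left 2 of the 6, while calls over all genes fell to 2132 from 4843. Without ML-792+DNR replicate 2 BCL2 reached 2-fold, and calls at 2-fold over all genes rose to 1178 from 888.

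**Figure D2:**
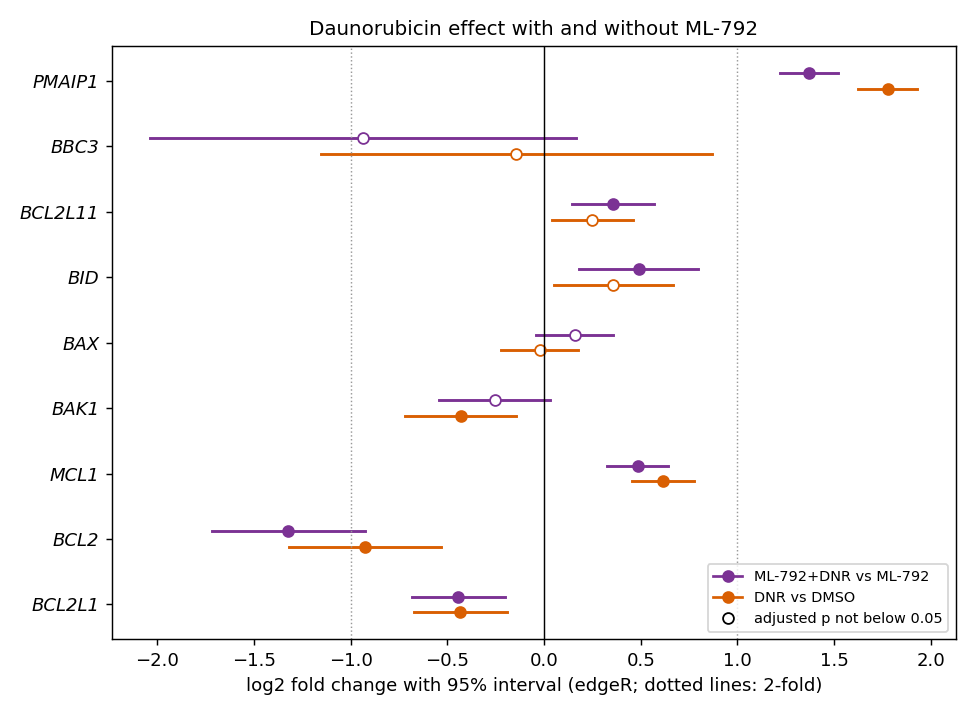
Log2 fold change with its 95% interval for the 9 tested members (horizontal axis), for ML-792+DNR against ML-792 and for DNR against DMSO; filled points have an adjusted p below 0.05 in edgeR and dotted lines mark 2-fold. PMAIP1 lay at 1.37 and 1.78, BCL2 at −1.32 and −0.92, and BAX had intervals that include 0 in both comparisons.

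ML-792 by itself moved no member past the adjusted threshold, and on top of DNR it lowered PMAIP1. ML-792 against DMSO gave 0 of 9 members at any fold in edgeR, where 0.241% of all genes passed, and 0 of 9 at 2-fold, where 0.0803% did. At an unadjusted p below 0.05 there were 2 (BCL2 and MCL1), beside 697 of all 13696 tested genes. DESeq2 called 0 members and 118 genes at any fold. With the replicate block BCL2 passed (log2 fold change 0.51, adjusted p = 0.0463), and the block raised the calls over all genes at any fold to 154 from 33. ML-792+DNR against DNR gave 1 of 9 at any fold, PMAIP1 at 0.715 of its DNR level, against 0.745% of all genes, and 0 of 9 at 2-fold, against 0.197%. In that comparison 2 members had an unadjusted p below 0.05, PMAIP1 and MCL1, beside 1768 of all 13696 tested genes. DESeq2 called both at any fold, with 362 genes over the whole table, and 0 members at 2-fold. With the block, edgeR also called both at any fold and 0 at 2-fold. Under the block 540 genes passed over the whole table at any fold, in place of 102. Without DNR replicate 3, and likewise with replicates 2 and 3 alone, 0 members passed. In each of these settings 2 genes passed over the whole table, in place of 102. The PMAIP1 estimate was −0.49 and −0.50 in them.

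**Figure D3:**
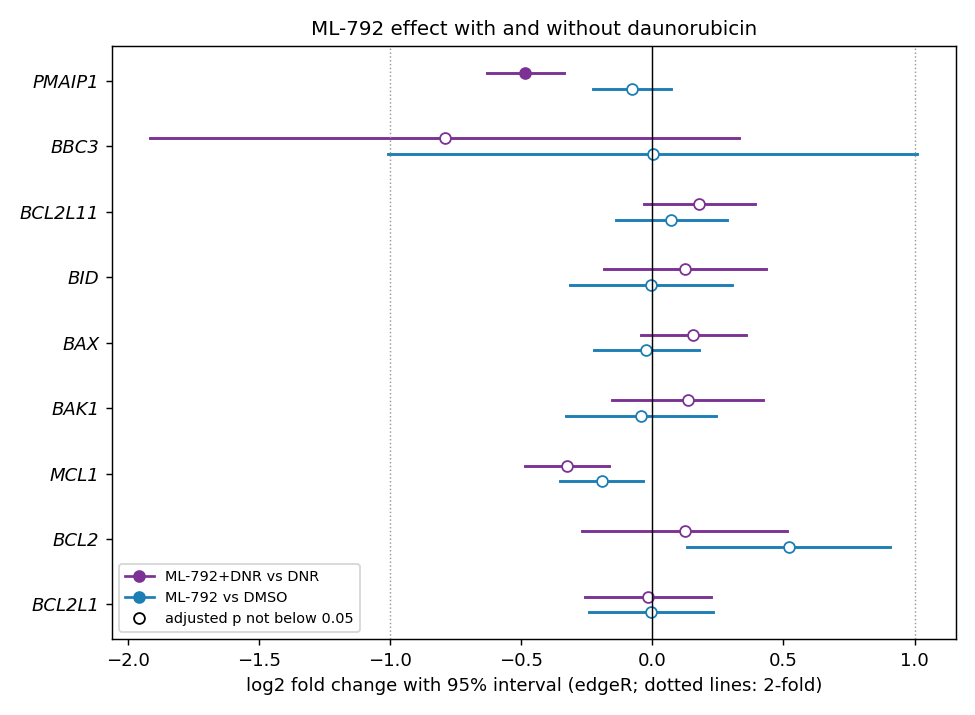
Log2 fold change with its 95% interval for the 9 tested members (horizontal axis), for ML-792+DNR against DNR and for ML-792 against DMSO; filled points have an adjusted p below 0.05 in edgeR and dotted lines mark 2-fold. PMAIP1 at −0.48 was the 1 filled point, MCL1 lay below 0 in both comparisons, and BBC3, with few reads, had the widest intervals.

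Whether ML-792 altered the size of the DNR effect was tested by an interaction term. It reached the threshold for 0 of 9 members and for 0% of all genes at any fold and 0% at 2-fold (edgeR), and DESeq2 called 0 members and 14 genes at any fold. PMAIP1 was the 1 member with an unadjusted p below 0.05, beside 493 of all 13696 tested genes. Its interaction was −0.41 ± 0.10 on the log2 scale (SE; adjusted p = 0.787, edgeR). The unadjusted p ranked 17 among 13696 genes. The 95% interval of that difference ran from −0.62 to −0.20. For MCL1 the interaction was −0.13 (95% interval −0.36 to 0.09), for BCL2 −0.40 (−0.95 to 0.15) and for BCL2L11 0.11 (−0.19 to 0.41).

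PMAIP1, which encodes the MCL1-binding BH3-only protein NOXA, lies at chr18:57567228-57571537 on the + strand (GRCh37). It had 168, 158 and 145 CPM in the ML-792+DNR libraries (replicates 1, 2 and 3), 229.8, 209.5 and 219.9 CPM in DNR, 61.6, 60.65 and 60.1 CPM in ML-792, and 65.2, 64.2 and 62.85 CPM in DMSO. All 6 libraries with DNR lay above all 6 without it, and the 3 ML-792+DNR libraries lay below the 3 DNR libraries. The log2 fold change of DNR against DMSO was 1.78 ± 0.07 (SE; adjusted p = 6.89e-09, edgeR with Benjamini-Hochberg adjustment), the second smallest p of all tested genes. Adding ML-792 to DNR gave −0.48 ± 0.07 (adjusted p = 0.00936; 0.0552 without DNR replicate 3 and 0.131 with replicates 2 and 3 alone, at −0.49 and −0.50). For ML-792 alone the value was −0.08, with a 95% interval from −0.23 to 0.07.

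The 250 bases before the RefSeq start of PMAIP1 are shown because this gene rose most among the tested members, with matches to a cyclic AMP response element (CRE) core and to GC boxes in capitals (GRCh38.p14, chr18:59899746-59899995, + strand).
PMAIP1: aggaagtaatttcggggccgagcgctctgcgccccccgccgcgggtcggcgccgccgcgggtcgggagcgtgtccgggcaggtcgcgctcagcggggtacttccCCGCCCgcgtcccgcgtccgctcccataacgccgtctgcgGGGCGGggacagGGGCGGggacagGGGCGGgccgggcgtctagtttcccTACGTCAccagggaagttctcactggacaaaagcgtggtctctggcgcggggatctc
The GC box (GGGCGG) matched 4 times, and 42.6% of the 35116 promoters in the table hold at least 1 match. The CRE core TACGTCA, a variant added to the search after this sequence was seen, matched 1 time and is found in 1.2% of promoters. The full CRE (TGACGTCA, in 1.6% of promoters), AP-1 (TGACTCA, in 4.2%), E-box (CACGTG, in 6.3%), TATA box (TATAAA, in 10.7%), E2F (TTTGGCGC or TTTCGCGC, in 1.0%) and NF-kB (in 5.2%) patterns had 0 matches in this window. Both strands were searched, the CRE core shares bases with the full CRE, and a match is a description of letters.

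MCL1 (chr1:150533371-150552214, - strand, GRCh37) encodes the short-lived guardian bound by NOXA, and it had the most reads of all members in each library except ML-792 replicate 2, where BCL2 had more. Its levels were 454, 459 and 467 CPM in ML-792+DNR, 547, 589.9 and 592.5 CPM in DNR, 356, 315 and 317 CPM in ML-792, and 405, 365 and 360.1 CPM in DMSO. The groups did not overlap: DNR was highest, ML-792+DNR lay between DNR and DMSO, and ML-792 lay below DMSO. MCL1 rose in DNR against DMSO by 0.61 ± 0.07 on the log2 scale (adjusted p = 5.37e-05, edgeR) and in ML-792+DNR against ML-792 by 0.48 ± 0.07 (adjusted p = 4e-04). ML-792+DNR against DNR gave −0.32 ± 0.07 with an adjusted p of 0.0645 in edgeR, 0.0202 with the replicate block and 0.00353 in DESeq2. ML-792 against DMSO gave −0.19 ± 0.07 (adjusted p = 0.719, edgeR). MCL1 overlaps ADAMTSL4 on the opposite strand, and the sources used here do not give the strand setting of the counting step.

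BCL2 (chr18:60790579-60987361, - strand, GRCh37), the founding guardian of the family, had 101, 169.9 and 107 CPM in ML-792+DNR, 94.6, 143 and 110.0 CPM in DNR, 309, 354 and 283.5 CPM in ML-792, and 216, 233.5 and 211 CPM in DMSO. Every library with DNR lay below every library without it, and every ML-792 library lay above the DMSO libraries. Replicate 2 was the highest library of each group. BCL2 fell in DNR against DMSO by 0.92 ± 0.18 on the log2 scale (adjusted p = 0.00199, edgeR; −0.80 to −1.11 over the 17 alternative settings). In ML-792+DNR against ML-792 it fell by 1.32 ± 0.18 (adjusted p = 0.000191), and in ML-792+DNR against DMSO by 0.80 ± 0.18 (adjusted p = 0.00438; 0.0592 with replicates 2 and 3 alone). The difference between ML-792+DNR and DNR was 0.12, with a 95% interval from −0.27 to 0.51. ML-792 against DMSO gave 0.52 ± 0.18 (adjusted p = 0.598, edgeR; 0.0463 with the replicate block at 0.51, and 0.0212 with no filter on low counts).

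The 250 bases before the BCL2 start are given for contrast with PMAIP1, since BCL2 fell most among the tested members (GRCh38.p14, chr18:63319770-63320019, - strand).
BCL2: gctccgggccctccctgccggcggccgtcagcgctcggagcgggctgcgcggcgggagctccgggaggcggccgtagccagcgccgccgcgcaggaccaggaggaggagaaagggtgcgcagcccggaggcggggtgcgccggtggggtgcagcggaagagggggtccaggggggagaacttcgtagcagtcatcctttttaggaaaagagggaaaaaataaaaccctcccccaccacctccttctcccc
None of the patterns named for PMAIP1 matched in it. The CRE core variant was taken from the PMAIP1 sequence, so its absence here is no comparison of the 2 genes. The GC box also matched 1 time in BAX, 2 times in BAK1, 3 times in BCL2L11 and 0 to 4 times in BID, by start. It matched 0 times in BCL2L1, BCL2A1 and BBC3. A link between matches and changes in RNA was not tested. Its share of G and C was 70.0%, close to the 72.8% of the PMAIP1 window. Of the 10 members, 9 were found in the promoter table.

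BCL2L1 (chr20:30252255-30311792, - strand, GRCh37) encodes BCL-XL, a guardian that binds both BH3-only proteins and BAX and BAK1. It had 16.2, 17.0 and 13.3 CPM in ML-792+DNR, 16.2, 16.4 and 14.5 CPM in DNR, 19.4, 22.7 and 21.3 CPM in ML-792, and 21.98, 21.7 and 20.01 CPM in DMSO. The 6 libraries with DNR lay below the 6 without it, and the groups with and without ML-792 overlapped within each set. BCL2L1 fell by 0.43 ± 0.11 on the log2 scale in DNR against DMSO (adjusted p = 0.0103, edgeR; 0.0538 without DNR replicate 3 and 0.0839 with replicates 2 and 3 alone) and by 0.44 ± 0.11 in ML-792+DNR against ML-792 (adjusted p = 0.00842). ML-792+DNR against DNR gave −0.02 (95% interval −0.26 to 0.23). The noncoding gene ABALON overlaps BCL2L1 on the opposite strand.

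BCL2A1 (chr15:80253234-80263538, - strand, GRCh37), a guardian known as an NF-kB target in blood cells, was close to the limit of detection. Its read counts were 1, 0 and 1 in ML-792+DNR, 2, 9 and 8 in DNR, 3, 0 and 1 in ML-792, and 2, 0 and 2 in DMSO. DNR replicates 2 and 3 were the only libraries with more than 3 reads, and DNR replicate 1 lay within the range of the other groups. Scaled for depth, the summed DNR counts (19 reads) were 5.66 times those of DMSO (4 reads), with an exact 95% counting interval from 1.88 to 22.9. ML-792+DNR (2 reads) against DNR gave a ratio of 0.103 (0.0116 to 0.426). These intervals cover counting error alone. Without the filter on low counts, the edgeR log2 fold change of DNR against DMSO was 2.40 with an adjusted p of 0.0507.

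Among the other BH3-only genes, BCL2L11 (chr2:111876955-111926021, + strand, GRCh37) encodes BIM, which binds all the guardians and can activate BAX and BAK1. It had 48.9, 56.4 and 47.9 CPM in ML-792+DNR, 44.7, 47.5 and 43.1 CPM in DNR, 39.4, 43.8 and 36.3 CPM in ML-792, and 37.3, 41.4 and 35.1 CPM in DMSO. The ML-792+DNR libraries lay above those of every other group, and the DNR libraries above those of DMSO. The gene rose in ML-792+DNR against DMSO by 0.43 ± 0.10 on the log2 scale (adjusted p = 0.00463, edgeR; 0.0611 with replicates 2 and 3 alone) and against ML-792 by 0.36 ± 0.10 (adjusted p = 0.0134; 0.0523 without ML-792 replicate 3, 0.11 with replicates 2 and 3 alone). DNR against DMSO gave 0.25 ± 0.10 (adjusted p = 0.0709, edgeR), and passed with the replicate block (adjusted p = 0.00457, at 0.25). The difference between ML-792+DNR and DNR was 0.18 (95% interval −0.03 to 0.39). The noncoding gene MIR4435-2HG overlaps BCL2L11 on the opposite strand.

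BID (chr22:18216904-18257536, - strand, GRCh37) encodes the BH3-only protein that caspase-8 cleaves to link death receptors with mitochondria. Its levels were 100.1, 99.7 and 96.2 CPM in ML-792+DNR, 93.5, 91.25 and 86.8 CPM in DNR, 53.2, 73.9 and 83.9 CPM in ML-792, and 61.6, 84.4 and 66.0 CPM in DMSO. Both groups with DNR were tight and lay above both groups without it, where the libraries were spread more widely. BID rose in ML-792+DNR against DMSO by 0.48 ± 0.14 on the log2 scale (adjusted p = 0.0186, edgeR) and against ML-792 by 0.49 ± 0.14 (adjusted p = 0.0188). The first of these calls was lost without DMSO replicate 1 (adjusted p = 0.0996), DMSO replicate 3 (0.0785) or ML-792+DNR replicate 1 (0.0566) and with replicates 2 and 3 alone (0.0689). The other was lost without ML-792 replicate 1 (0.0617) or ML-792+DNR replicate 1 (0.0587) and with replicates 2 and 3 alone (0.135). DNR against DMSO gave 0.36 ± 0.14 (adjusted p = 0.0756, edgeR). It passed with the replicate block (0.0394), without DMSO replicate 2 (0.027), without ML-792 replicate 1 (0.0204) or with no filter on low counts (0.0215).

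BBC3 (chr19:47724079-47736023, - strand, GRCh37), which encodes the BH3-only protein PUMA, had 0.229, 0.264 and 0.413 CPM in ML-792+DNR, 0.202, 0.775 and 0.592 CPM in DNR, 0.341, 0.8055 and 0.588 CPM in ML-792, and 0.367, 0.495 and 0.867 CPM in DMSO. These levels rest on 7 to 34 reads per library, and all 4 groups overlapped. The log2 fold change of DNR against DMSO was −0.14, with a 95% interval from −1.15 to 0.87. ML-792+DNR gave −0.94 ± 0.51 against DMSO (adjusted p = 0.167, edgeR; 0.0411 with the replicate block) and −0.94 ± 0.51 against ML-792 (adjusted p = 0.176; 0.0477 with the block).

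Of the effectors, BAK1 fell with DNR and BAX did not pass in any comparison. BAX (chr19:49458072-49465055, + strand, GRCh37) had 48.7, 44.25 and 48.8 CPM in ML-792+DNR, 40.4, 42.6 and 44.1 CPM in DNR, 36.6, 45.0 and 45.6 CPM in ML-792, and 41.5, 45.1 and 42.6 CPM in DMSO. Its log2 fold change was −0.02 for DNR against DMSO (95% interval −0.22 to 0.18) and 0.16 for ML-792+DNR against DNR (−0.04 to 0.36), and no comparison reached an adjusted p of 0.05 in edgeR. BAK1 (chr6:33540324-33548070, - strand, GRCh37) had 28.5, 36.2 and 28.9 CPM in ML-792+DNR, 23.5, 34.1 and 27.8 CPM in DNR, 33.6, 41.2 and 37.1 CPM in ML-792, and 37.2, 38.7 and 39.2 CPM in DMSO. Both groups with DNR lay below DMSO, and replicate 2 was the highest library in both. The fall of BAK1 in DNR against DMSO was 0.43 ± 0.13 on the log2 scale (−0.43, adjusted p = 0.0264, edgeR). Leaving out DNR replicate 1 (adjusted p = 0.133), DNR replicate 3 (0.0828), DMSO replicate 2 (0.0589) or DMSO replicate 3 (0.067) ended this call, as did replicates 2 and 3 alone (0.152). ML-792+DNR gave −0.30 ± 0.13 against DMSO (adjusted p = 0.0983, edgeR; 0.0114 with the replicate block, and 0.0296 without ML-792+DNR replicate 2) and −0.26 ± 0.13 against ML-792 (adjusted p = 0.157; 0.0278 with the block, and 0.0465 without ML-792+DNR replicate 2). BAK1 overlaps the pseudogene GGNBP1 on the opposite strand.

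Levels of different genes were compared per kilobase of annotated exon. In DMSO the order was MCL1 at 60.5 ± 3.92 CPM per kb (SD, n = 3), PMAIP1 at 29.3 ± 0.537, BCL2 at 17.5 ± 0.938, BAK1 at 17.35 ± 0.465, BAX at 16.6 ± 0.715, BID at 16.0 ± 2.74, BCL2L11 at 5.63 ± 0.479 and BCL2L1 at 5.055 ± 0.252, with BBC3 at 0.181 and BCL2A1 at 0.0315. BCL2, BAK1, BAX and BID did not differ beyond their spread. With DNR alone, PMAIP1 at 100.5 ± 4.65 CPM per kb stood beside MCL1 at 92.6 ± 4.12, and BCL2 at 9.195 ± 1.98 came after BID, BAX and BAK1. In ML-792+DNR, MCL1 (74.0 ± 1.06 CPM per kb) and PMAIP1 (71.8 ± 5.41) did not differ beyond their spread. The order depends on the length used: with the canonical transcript in place of all exons, MCL1 led in DNR at 145.9 against 115.7 CPM per kb for PMAIP1, and in DMSO BAX (54.2) came ahead of PMAIP1 (33.7).

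PMAIP1 and MCL1 encode a ligand and its partner, and the reads of both rose with DNR, so their ratio within a library was taken next. Per 100 MCL1 reads there were 37.1, 34.4 and 31.0 PMAIP1 reads in ML-792+DNR, 42.0, 35.5 and 37.1 in DNR, 17.3, 19.3 and 19.0 in ML-792, and 16.1, 17.6 and 17.5 in DMSO. The groups with DNR overlapped each other and lay well above the groups without DNR. BCL2 gave the opposite picture: per 100 MCL1 reads there were 22.3, 37.0 and 23.0 BCL2 reads in ML-792+DNR, 17.3, 24.3 and 18.6 in DNR, 86.9, 113 and 89.5 in ML-792, and 53.5, 64.0 and 58.5 in DMSO. BCL2L11 per 100 BCL2 reads was 48.3, 33.2 and 44.6 in ML-792+DNR, 47.3, 33.1 and 39.2 in DNR, 12.8, 12.4 and 12.8 in ML-792, and 17.2, 17.7 and 16.6 in DMSO. The BCL2 ratios were chosen after the values of BCL2 were known, and none of the ratios was tested.

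**Figure D4:**
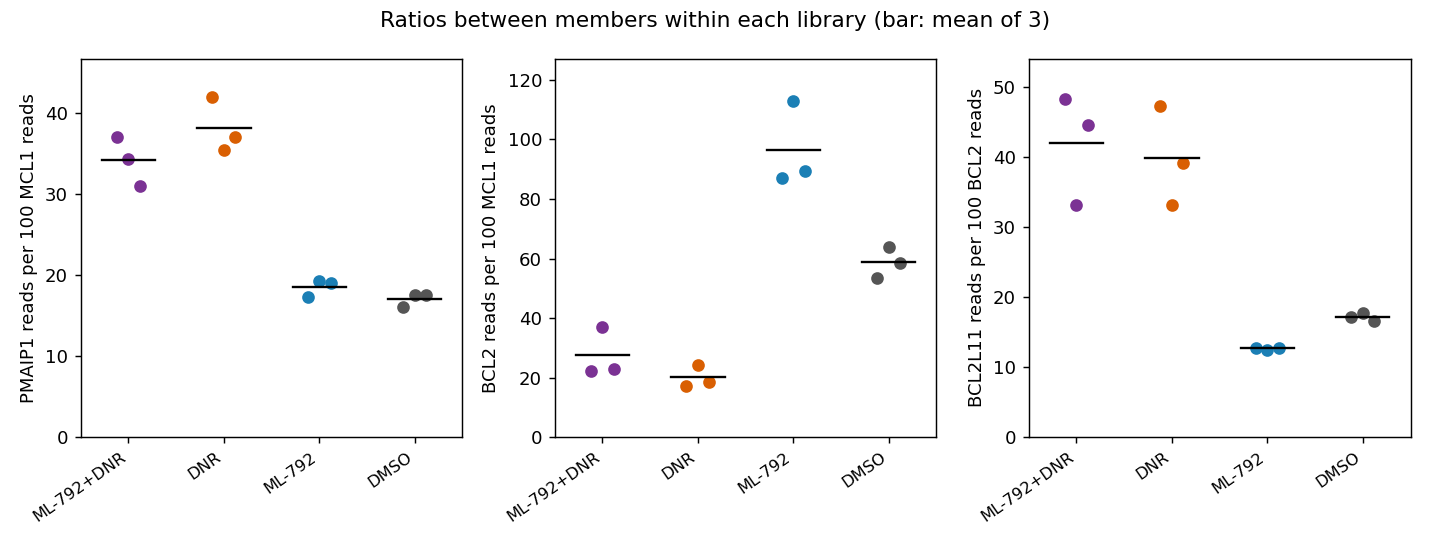
Ratios between members within each of the 12 libraries, as reads of the first gene per 100 reads of the second (vertical axes from 0), by group; points are libraries and bars are means of 3. The PMAIP1 to MCL1 ratio lay between 31.0 and 42.0 in the libraries with DNR and between 16.1 and 19.3 in those without, and the BCL2 to MCL1 ratio reached 86.9 to 113 in ML-792.

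Summed per kilobase, the 4 anti-apoptotic members together gave 84.9, 91.35 and 86.8 CPM per kb in ML-792+DNR, 99.3, 110.4 and 107.7 in DNR, 86.5, 84.1 and 78.5 in ML-792, and 87.5, 82.3 and 79.4 in DMSO. The 6 pro-apoptotic members gave 139, 137 and 127 in ML-792+DNR, 159, 156 and 156.4 in DNR, 75.5, 87.2 and 86.4 in ML-792, and 82.3, 89.7 and 83.3 in DMSO. On the pro-apoptotic side the groups with DNR did not overlap those without, and PMAIP1 carried most of that difference. These sums are a description of RNA, with no test.

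Of 13 other BCL2 family genes, 8 had enough reads to be tested, and 1 of these passed at any fold in DNR against DMSO, where 30.0% of all tested genes did. This was BIK, which encodes a BH3-only protein of the endoplasmic reticulum and fell by 0.56 ± 0.18 on the log2 scale (adjusted p = 0.031, edgeR). BIK had 12.1, 14.8 and 14.2 CPM in ML-792+DNR, 9.20, 9.46 and 11.7 CPM in DNR, 15.4, 15.25 and 24.45 CPM in ML-792, and 13.6, 16.65 and 14.6 CPM in DMSO. Leaving out DNR replicate 1 (adjusted p = 0.12), DNR replicate 2 (0.0824), DMSO replicate 2 (0.0947) or DMSO replicate 3 (0.0589) ended the BIK call, as did replicates 2 and 3 alone (0.117). In ML-792+DNR 1 gene was higher, BCL2L12, by 0.39 ± 0.13 against DMSO (adjusted p = 0.031) and by 0.42 ± 0.13 against ML-792 (adjusted p = 0.0234). For BCL2L12 against DMSO, the call ended without ML-792+DNR replicate 1 (adjusted p = 0.0757) or 3 (0.124), without DMSO replicate 1 (0.133) or 2 (0.0719), and with replicates 2 and 3 alone (0.137). Against ML-792 it ended without ML-792+DNR replicate 1 (0.0628) or 3 (0.0981), without ML-792 replicate 1 (0.0925), and with replicates 2 and 3 alone (0.201). BMF, a BH3-only gene with the largest estimate among these 8, stood at 0.90 ± 0.47 in DNR against DMSO (adjusted p = 0.171, edgeR). It had 12 to 28 reads per DNR library and 5 to 21 per DMSO library. BCL2L2 was listed at 0 in all libraries. Reads that HTSeq set aside as ambiguous between genes are not in these counts. The 0 alone therefore does not show that this RNA was absent. ML-792 against DMSO and ML-792+DNR against DNR each called 0 of 8 in edgeR and in DESeq2. At an unadjusted p below 0.05 there were 0 and 2 (BIK and BNIP3), beside 697 and 1768 of all 13696 tested genes.

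A further list of 18 genes held a selection from the apoptosome, the caspases and their inhibitors. It also held VDAC1, VDAC2, VDAC3, AIFM1, ENDOG, DIABLO and HTRA2, which belong to none of these groups. All 18 were tested, and none changed 2-fold. DNR against DMSO gave 5 higher and 4 lower of the 18 at any fold, where 30.0% of all tested genes passed, and ML-792+DNR against DMSO 5 higher and 3 lower, where 35.4% did. CASP9, the initiator caspase of the apoptosome, had 14.1, 13.9 and 17.2 CPM in ML-792+DNR, 16.3, 16.0 and 15.9 CPM in DNR, 8.04, 7.995 and 7.77 CPM in ML-792, and 9.30, 9.22 and 9.30 CPM in DMSO. It rose by 0.79 ± 0.11 on the log2 scale in DNR against DMSO (adjusted p = 0.000127, edgeR). CASP8, the initiator at death receptors that cleaves BID, fell by 0.64 ± 0.10 (adjusted p = 0.000421). The 9 calls also held CYCS, ENDOG and VDAC2, which were higher, and APAF1, CASP2 and BIRC5, which were lower; each of these 6 was lost when at least 1 library was left out or with replicates 2 and 3 alone. ML-792 against DMSO and ML-792+DNR against DNR called 0 of 18 in edgeR. At an unadjusted p below 0.05 there were 0 and 1 (XIAP), beside 697 and 1768 of all 13696 tested genes. DESeq2 called 0 and 1, and XIAP also passed in edgeR with the block (−0.35, adjusted p = 0.0283). With the block ML-792+DNR against DMSO called 12 of 18 in place of 8, and 49% of all genes in place of 35.4%.

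Of 6 genes for enzymes known to set the stability of MCL1 or other family proteins, DNR against DMSO lowered 3 (GSK3B, BTRC and FBXW7), where 30.0% of all tested genes passed in either direction. ML-792+DNR against DMSO lowered 5, these 3 with HUWE1 and USP9X, where 35.4% of all genes passed, and 0 were higher in either comparison. GSK3B encodes the kinase whose phosphorylation of MCL1 marks it for degradation, and it had 49.25, 49.8 and 42.5 CPM in ML-792+DNR, 57.4, 60.5 and 51.8 CPM in DNR, 96.5, 88.8 and 76.2 CPM in ML-792, and 104.7, 89.8 and 92.1 CPM in DMSO. It fell by 0.76 ± 0.10 on the log2 scale in DNR (adjusted p = 0.000144, edgeR) and by 1.02 ± 0.10 in ML-792+DNR (adjusted p = 1.88e-05), both against DMSO. The median of the 6 genes was −0.25 and −0.52 in these comparisons, beside 0.01 and 0.02 for all tested genes. The list was not split by direction of action on MCL1. MCL1 protein was not measured in these data, and a direction for its stability cannot be read from this median. FBXW7, a ubiquitin ligase subunit for MCL1, had an adjusted p of 0.0283 in DNR against DMSO, and leaving out DNR replicate 1 (0.121), DNR replicate 3 (0.077), DMSO replicate 1 (0.0977) or DMSO replicate 2 (0.0559) ended that call. With replicates 2 and 3 alone FBXW7 (0.264) and BTRC (0.0605) did not pass there, nor did HUWE1 (0.0557) and USP9X (0.0904) in ML-792+DNR against DMSO. ML-792 against DMSO and ML-792+DNR against DNR each called 0 of 6 in edgeR and in DESeq2. At an unadjusted p below 0.05 there were 0 and 4, beside 697 and 1768 of all 13696 tested genes.

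Among transcription factors that are known to act on member genes, 13 of 15 listed were tested. DNR against DMSO called 5 of the 13 at 2-fold, where 6.98% of all tested genes were called: ATF3, E2F1 and DDIT3 higher, MYC and MYB lower. The list was chosen with earlier results of these data known, so this count is no test of the list against all genes. ATF3, a stress-induced factor known to act at the PMAIP1 promoter, had 31.7, 15.7 and 23.9 CPM in ML-792+DNR, 44.3, 38.1 and 39.2 CPM in DNR, 2.101, 1.01 and 1.79 CPM in ML-792, and 2.27, 2.13 and 2.55 CPM in DMSO. It rose by 3.35 ± 0.26 on the log2 scale in ML-792+DNR (adjusted p = 2.53e-06, edgeR) and by 4.13 ± 0.26 in DNR (adjusted p = 3.16e-07), both against DMSO. Its group means had the same order as those of PMAIP1, and so did those of DDIT3, E2F1 and the member MCL1. The part of these factors in the PMAIP1 rise was not tested. For ATF3, ML-792+DNR against DNR gave −0.77 ± 0.22 (adjusted p = 0.145, edgeR; 0.0119 with the replicate block, at −0.82).

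DDIT3, which encodes the stress factor CHOP, had 30.9, 24.4 and 32.2 CPM in ML-792+DNR, 50.6, 47.2 and 53.3 CPM in DNR, 23.6, 21.8 and 19.0 CPM in ML-792, and 25.2, 21.5 and 20.5 CPM in DMSO. It was 0.79 ± 0.12 lower on the log2 scale in ML-792+DNR than in DNR (−0.79, adjusted p = 0.0127, edgeR; 0.0513 without DNR replicate 1, 0.0642 without DNR replicate 3 and 0.147 with replicates 2 and 3 alone). MYC, a growth-promoting transcription factor that also primes cells for apoptosis, had 251, 584 and 344 CPM in ML-792+DNR, 81.5, 146 and 117.5 CPM in DNR, 1045, 1507 and 1296 CPM in ML-792, and 519.8, 725 and 584 CPM in DMSO. MYC had the same order of group means as BCL2, as did MYB and SPI1. For BCL2 itself the ML-792+DNR and DNR libraries overlapped (0.12, 95% interval −0.27 to 0.51). The part of these factors in the fall of BCL2 was not tested. MYC was 1.78 ± 0.28 higher on the log2 scale in ML-792+DNR than in DNR (adjusted p = 0.0127, edgeR; 0.0639 without DNR replicate 1, 0.0733 without DNR replicate 3 and 0.0709 with replicates 2 and 3 alone). ML-792 against DMSO called 0 of the 13 factors in edgeR and 1 in DESeq2. Over all genes these called 33 and 118 at any fold. At an unadjusted p below 0.05 there were 4 factors, beside 697 of all 13696 tested genes. With the block MYC (1.07, adjusted p = 0.0015) and FOXO1 (0.73, adjusted p = 0.0245) passed in edgeR, among 154 genes over the whole table.

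**Figure D5:**
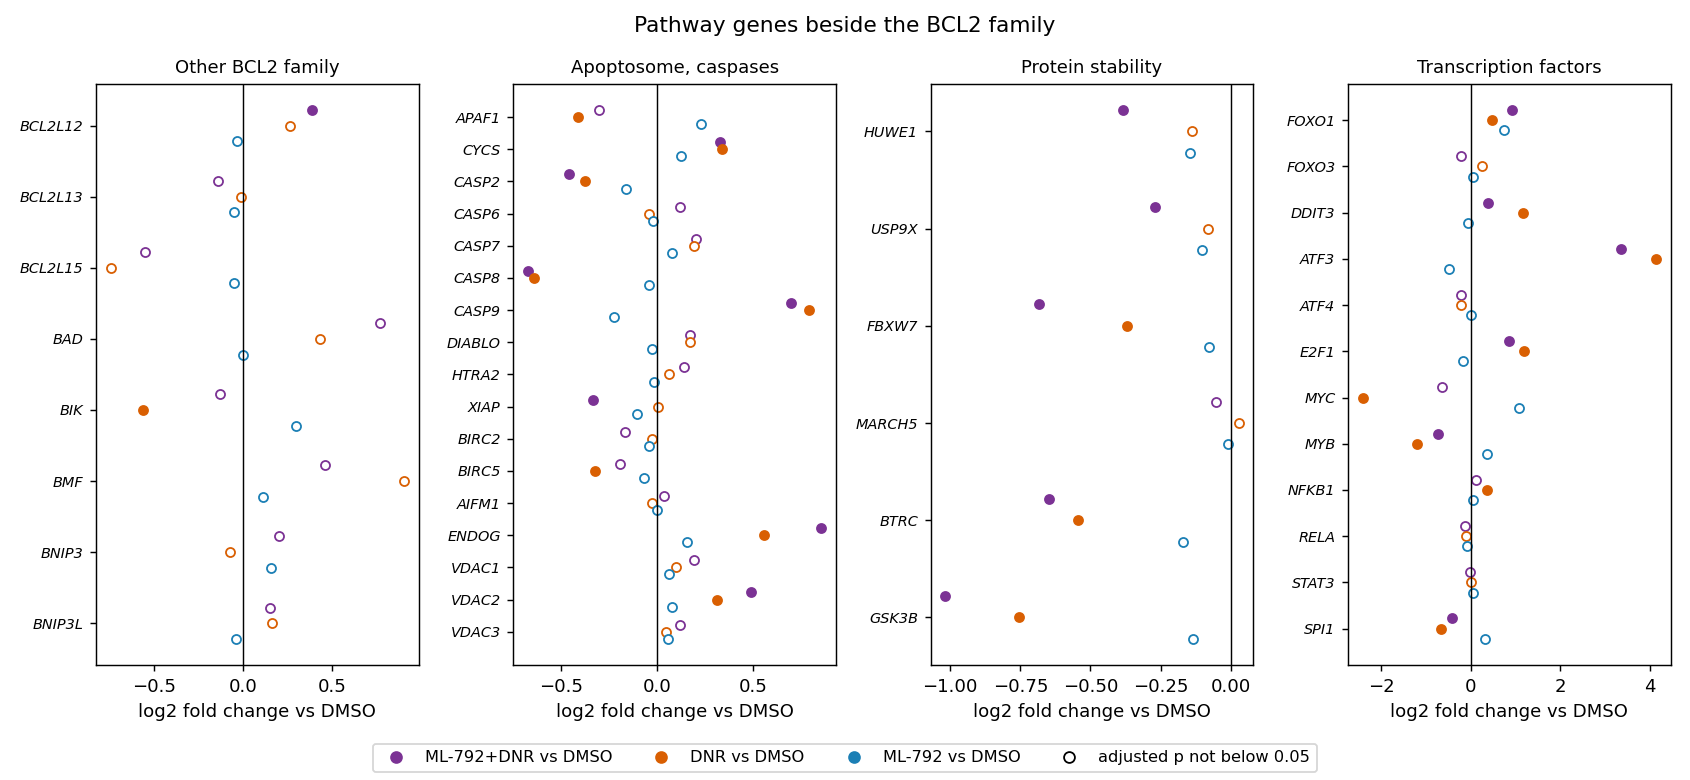
Log2 fold change against DMSO (horizontal axes, each panel with its own scale) of tested genes in 4 pathway lists, for ML-792+DNR, DNR and ML-792; filled points have an adjusted p below 0.05 in edgeR. No ML-792 point is filled, GSK3B lies at −1.02 in ML-792+DNR and −0.76 in DNR, and ATF3 is the largest rise at 3.35 in ML-792+DNR and 4.13 in DNR.

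Of the myeloid markers, 3 of 8 were lower in DNR than in DMSO, where 30.0% of all tested genes passed in either direction: CEBPA (−1.26), SPI1 (−0.65) and CD33 (−0.49), at adjusted p of 5.9e-05, 0.00212 and 0.000586 (edgeR). The other 5 did not pass, with log2 fold changes of −0.13 for MPO, 0.00 for CTSG, 0.09 for AZU1, 0.20 for ELANE and 0.41 for PRTN3. The part of these markers in the changes of the BCL2 family was not tested.

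The genes most like PMAIP1 over the 12 libraries, by Pearson's r of log2 CPM, were PELI1 (0.994), KLHL28 (0.994) and IFIH1 (0.993), and those most like BCL2 were ORC2 (0.986), STAT5B (0.986) and MAK16 (0.985). Among members, MCL1 and PMAIP1 had r = 0.943 and BCL2 and PMAIP1 r = −0.899. These values describe 12 libraries in 4 groups of 3, so that they follow mostly from the differences between groups.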

How the data were processed

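The 12 libraries, 3 per group, were made from polyA RNA of the HL-60 line (TruSeq Stranded mRNA kit). Per the submitters' processing notes, the authors used TopHat2 2.1.1, Bowtie2 2.3.5.1, HTSeq 0.11.1, Cufflinks 2.2.1, DESeq2 and Picard with the hg19 (GRCh37) build. The raw counts per gene were used as deposited. The deposited normalized table and the table of the authors' own comparisons (log2 fold changes and p-values) were not used. The 5 HTSeq counter lines were left out, and 65.3% to 67.4% of records lay in genes.

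Counts of all groups were fitted together with edgeR 4.0.16 (R 4.3.3; TMM scaling, filterByExpr with a minimum count of 10 and total of 15, quasi-likelihood test), and p-values were adjusted over 13696 genes by Benjamini and Hochberg. Passing meant an adjusted p below 0.05, also with a change of at least 2-fold where stated. P-values of the main fit rest on the spread between the libraries within groups. That spread includes any shift that same-numbered libraries share. Alternatives were DESeq2 1.42.0, median-of-ratios scaling, no count filter, other fold limits, a replicate block, each library left out and replicates 2 and 3 alone. Same-numbered libraries deviated together (r of 0.0722 to 0.587 over 18 pairs, against −0.498 to 0.0913 over 36 differently numbered pairs). By a rule that every pair exceed 0.1, numbers paired the libraries in every comparison except DNR against DMSO and the interaction, and the pairing was read from the numbers in the labels and these values. For DNR against DMSO the replicate 1 pair stood at 0.0852, and those of replicates 2 and 3 at 0.249 and 0.336. Missing this cut-off does not show that the DMSO and DNR libraries came from separate experiments. Both groups were paired with ML-792+DNR by the same rule. The main fit held no block in any comparison.

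Exon lengths came from GENCODE on GRCh37 and promoters from RefSeq (GRCh38.p14). All 10 members were reported, with 4 lists of pathway genes, of which those passing or of defining roles were named. Some listed genes, counted in the list totals, are not reported here by name. Members and lists were chosen with earlier results of these data known.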

Additional observations from a re-analysis of the deposited data

How the results depend on the processing

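Over the alternatives, member counts moved as follows. With no fold minimum the called members were 6 for ML-792+DNR against ML-792, 6 for ML-792+DNR against DMSO, 5 for DNR against DMSO and 1 for ML-792+DNR against DNR. A limit of 1.5-fold gave 3 for DNR against DMSO and 2 for ML-792+DNR against DMSO. The share of all genes at 1.5-fold is not given here, so these 2 counts have no background beside them. With 1 library left out the 2-fold counts ran from 1 to 2 for both DNR against DMSO and ML-792+DNR against DMSO, and the counts at any fold from 3 to 6 for DNR against DMSO and from 0 to 1 for ML-792+DNR against DNR. Over all genes, the 2-fold calls then ran from 703 to 1132 for DNR against DMSO and from 668 to 1178 for ML-792+DNR against DMSO. Those at any fold ran from 2617 to 4331 for DNR against DMSO and from 2 to 121 for ML-792+DNR against DNR. Replicates 2 and 3 alone gave 3 at any fold for DNR against DMSO, 2 for ML-792+DNR against DMSO and 0 for ML-792+DNR against DNR. Over all genes they gave 1911, 2132 and 2 in the same order. DESeq2 gave 2 for ML-792+DNR against DNR, with 362 over all genes. No count filter gave 1 for ML-792 against DMSO, with 90 over all genes, and let BID pass in DNR against DMSO (adjusted p = 0.0215, edgeR). Causes were not tested.

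With the replicate block the counts at any fold were 2 for ML-792+DNR against DNR and 1 for ML-792 against DMSO. For DNR against DMSO, where the numbers do not pair the libraries by the rule used, the block gave 7, adding BCL2L11 (adjusted p = 0.00457) and BID (0.0394), while calls over all genes also rose, to 5767 from 4108 of 13696. Among the other BCL2 family genes it gave 4 in place of 1, adding BCL2L12 (0.0363), BCL2L15 (0.0265) and BMF (0.038). No member lost a call under the block.

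Signs turned only for differences that had not passed. For ML-792 against DMSO, replicates 2 and 3 alone gave BCL2L1 0.0786, BAX 0.0454, BAK1 0.00558 and BID 0.0696 (log2), and BBC3 was −0.0152 without the filter and −0.0149 with the block. The BCL2L1 interaction was 0.0101 without the filter. With 1 library left out, ML-792 against DMSO ran from −0.0603 to 0.052 for BCL2L1, −0.312 to 0.428 for BBC3, −0.00164 to 0.141 for BCL2L11, −0.0806 to 0.0721 for BAX, −0.118 to 0.0273 for BAK1 and −0.154 to 0.161 for BID. DNR against DMSO ran from −0.549 to 0.272 for BBC3 and −0.0669 to 0.00639 for BAX. ML-792+DNR against DNR ran from −0.154 to 0.304 for BCL2 and −0.0886 to 0.0809 for BCL2L1, and the interaction from −0.0834 to 0.0863 for BCL2L1 and −0.0357 to 0.285 for BID. Low counts limit BBC3 and BCL2A1, and 3 h of treatment and 1 cell line bound all values.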
